A study of Bos taurus with 6 samples.

Results

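The genes described here are 50 genes of mitosis and chromosome segregation, taken as a list by name: the kinases and cyclins that start mitosis, the spindle checkpoint, the kinetochore, the spindle motors, the proteins of cytokinesis and those that compact chromosomes. A probe counted as a member if its gene symbol in the annotation of the array was on the list. That found 75 of 21790 probes with a symbol, for 48 of the 50 genes. Of these, 45 genes had a probe above the negative controls often enough to be measured, among 12331 genes measured in all. TTK and CENPA had no probe under those symbols and were not analysed here. FOXM1, INCENP and ANLN had probes that failed the filter on dim probes: ANLN exceeded the negative controls on 0 arrays in either group, INCENP on 0 in the superstimulated and 1 in the non-superstimulated group, and FOXM1 on 1 in each.

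RNA was compared between superstimulated cows, given a course of gonadotropins so that many ovarian follicles grow at once, and non-superstimulated cows, the reference, with 3 cows in each group. The labels describe multiparous beef cattle, material that was dissected and snap frozen, and gonadotropins as the hormone entry of both groups, the reference included. Each cow of one group was hybridised against the cow of the same number in the other, on 2 arrays with the dyes exchanged, so that there were 6 arrays, 3 cow pairs and n = 3 pairs. Neither a tissue, nor the ages of the cows, nor the time of sampling is in the labels used here.

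Which dye carried which group is stated differently in the 2 places that give it. By the dye field of each array, Cy5 carried the superstimulated cow on the first 3, and by the design text Cy3 did. All values follow the dye fields. With the other reading every sign below turns, and the names of the groups change places, while the sizes and the differences between pairs stay as they are.

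Mitosis begins when the kinase CDK1, bound to cyclins A and B, is switched on. The spindle checkpoint then holds the cell until every kinetochore is attached to microtubules, after which the anaphase-promoting complex marks securin and cyclin B for destruction and the chromatids separate. Most transcripts of this machinery are made late in the cell cycle, so their level in a tissue is widely used as a readout of dividing cells. In growing ovarian follicles granulosa cells divide, and they leave the cell cycle after the surge of luteinizing hormone (LH).

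The material was checked against fixed markers. Of 9 measured granulosa cell markers, 8 were brighter than the negative controls on every array in both groups. The same held for 4 of 6 markers of theca, 6 of 11 of smooth muscle and fibroblasts, 2 of 6 of leukocytes, 1 of 5 of epithelium, 0 of 6 of endothelium, 0 of 5 of oocytes and 0 of 3 of red cells. FSHR, the receptor of follicle-stimulating hormone, and CYP19A1, the aromatase, both exceeded the controls on all 6 arrays in each group. Of the 45 mitosis genes, 37 did so, and the median gene stood at the 78.4th percentile of intensity among all genes measured. Among the 8 others, SPC25, SMC2, ECT2 and TPX2 exceeded the controls on only 1 of 2 arrays in non-superstimulated cow 3. Their ratios in pair 3 are thus against a level near background and less exact in size.

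Most mitosis genes were lower in the superstimulated cow of pair 2 and higher in that of pair 3, and fewer were called in pair 1. Their median log2 ratio of superstimulated over non-superstimulated was -0.27 in pair 1, -0.99 in pair 2 and 0.71 in pair 3, where the median of all genes was -0.0066, -0.017 and -0.012. In pair 2 the ratio was below 0 for 43 of 45 genes, against 53.5% of all genes, and in pair 3 below 0 for 5, against 51.5%. In pair 1 it was below 0 for 35, against 51.6%. In bulk RNA, fewer dividing cells and less of these transcripts per cell cannot be told apart.

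**Figure D1:**
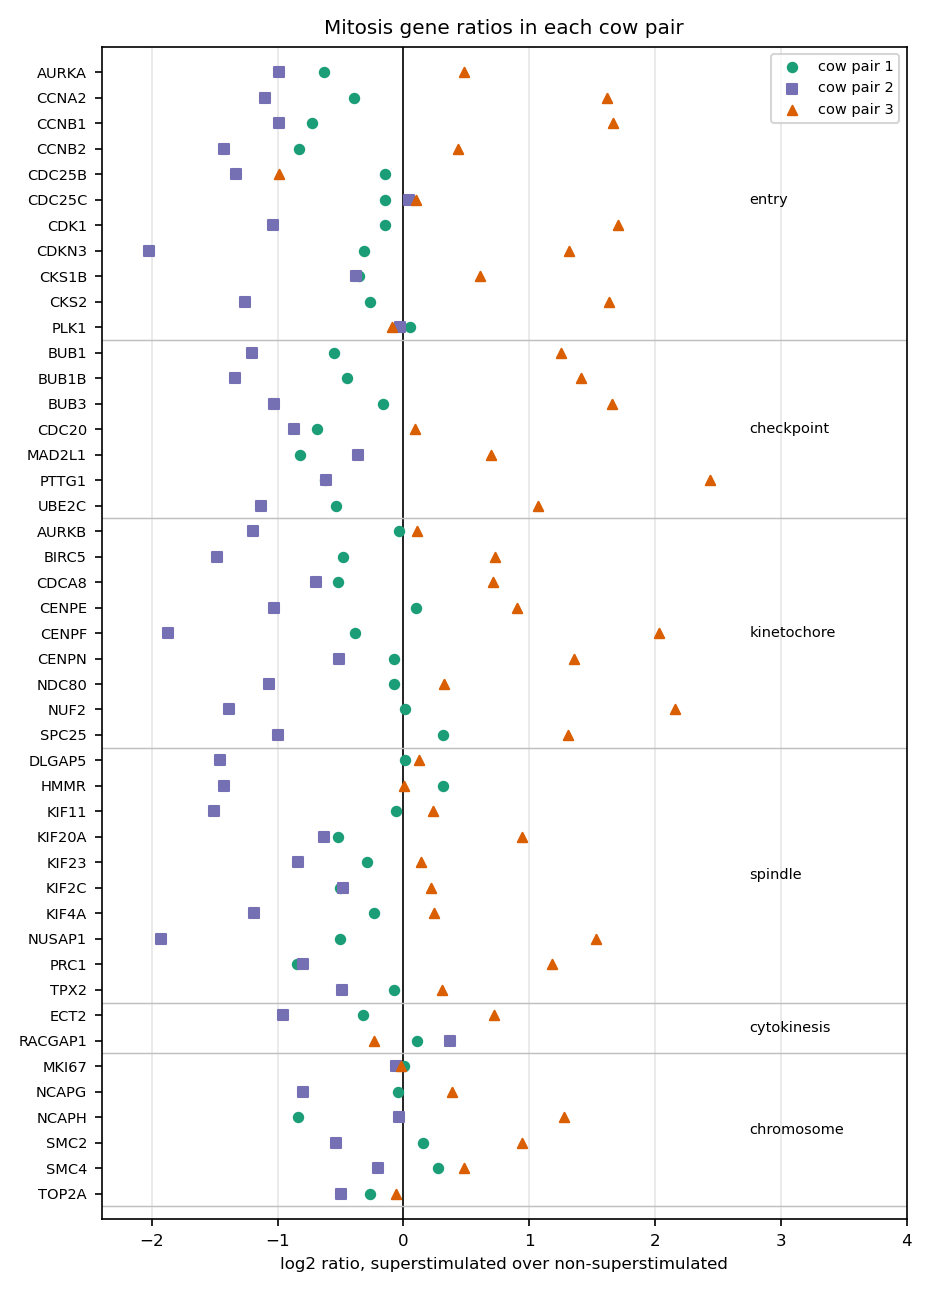
Log2 ratio of superstimulated over non-superstimulated (x axis) for the 45 measured mitosis genes (y axis, grouped by role), with 1 symbol for each cow pair, the mean of its 2 arrays. Squares of pair 2 lie left of 0 for 43 genes and triangles of pair 3 lie left of 0 for 5. For HMMR, neither symbol has an exact size, since superstimulated cow 2 and both cows of pair 3 were not above background.

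Each pair was tested against the error of its dye swap by limma, with Benjamini-Hochberg adjustment over all genes and a threshold of 0.05. This error is technical, so a call says that these 2 cows differ and nothing of other cows. In pair 2, 38 of 45 genes were lower in the superstimulated cow, where 21.8% of all genes were, and 1, RACGAP1, was higher, where 13.8% of all genes were. In pair 3, 31 were higher, where 27.3% of all genes were, and 1, CDC25B, was lower, where 19.6% were. In pair 1, 14 were lower, against 6.91% of all genes, and 0 were higher, against 3.83%. The calls in pair 1 came to 28 without pair 3 in the fit and to 24 with median centring in place of loess. From the authors' deposited table, the same fit called 0 mitosis genes in pair 1, 25 in pair 2 and 21 in pair 3. The share of all genes called is not given for these other fits, so their counts cannot be compared with the shares above.

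The ratio differed between the 3 pairs for 41 of 45 genes, where 51.1% of all genes differed. The 4 others were MKI67, TOP2A, CDC25C and PLK1. Lower in pair 2 and higher in pair 3, with both calls at the threshold, were 28 of 45 genes, against 9.67% of all genes. The opposite pattern was seen for 0 of 45, against 2.97%. This pattern was counted after its values were seen. From the authors' deposited table, the same fit gave this pattern for 14 genes, and 26 that differed between pairs. For the deposited table the share of all genes is not given, so these counts cannot be compared with it. Between the highest and the lowest pair, 17 of 45 genes lay at least 2 apart on the log2 scale, where 7.9% of all genes did.

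In each pair, the 2 arrays of the swap gave medians of the same sign. On the array with the superstimulated cow in Cy5 and on its swap, the median ratio of the mitosis genes was -0.28 and -0.24 in pair 1, -1.02 and -0.83 in pair 2, and 0.73 and 0.50 in pair 3. In pair 2, 40 genes were below 0 on both arrays, and in pair 3, 35 were above 0 on both. In pair 1 both arrays were below 0 for 27 genes and above 0 for 4. The same sign on both arrays was thus seen for 31, 40 and 36 of 45 genes in pairs 1, 2 and 3. Of all genes, 48.7%, 60.6% and 63.2% had it. An effect of dye passed the threshold for 12 of 45 genes, against 32.4% of all genes.

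**Figure D2:**
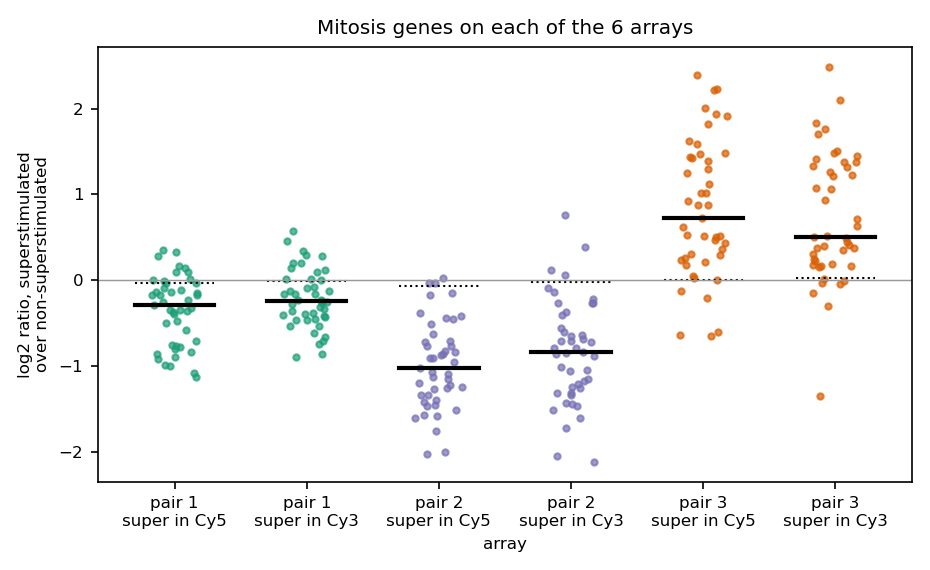
Log2 ratio of superstimulated over non-superstimulated (y axis) on each of the 6 arrays (x axis), with 1 point per mitosis gene, a solid line at their median and a dotted line at the median of all genes. The medians of the mitosis genes are -0.28 and -0.24 in pair 1, -1.02 and -0.83 in pair 2, and 0.73 and 0.50 in pair 3.

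The levels of the single cows show which cow of a pair held the low value. Levels are log2 intensities per channel, averaged over the 2 arrays of a cow, and each is set only against the same probe in other cows. Relative to a gene's own mean over the 6 cows, the median mitosis gene stood at 0.35, -0.094 and -0.48 in superstimulated cows 1, 2 and 3, and at 0.68, 0.86 and -1.10 in non-superstimulated cows 1, 2 and 3. Non-superstimulated cow 3 had the lowest level of the 6 cows for 39 of 45 genes, where it did so for 27.9% of all genes. Non-superstimulated cow 2 had the highest level for 27 of 45 and cow 1 for 14, where they did so for 12.3% and 11.8% of all genes. The 3 superstimulated cows lay between these, so the non-superstimulated group enclosed the superstimulated group.

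Non-superstimulated cow 3 stood apart in other genes too, with the highest level of the 6 cows for 31.3% of all genes. Cows of different pairs lay on different arrays, so an effect of array can enter a comparison between them. The count of 39 came to 40 on the arrays with the superstimulated cow in Cy5 alone and to 36 on those with it in Cy3. It was 39 without a step between arrays. Leaving out pair 3, and with it this cow, the median over the mitosis genes of the mean ratio was -0.61, and leaving out pair 2 it was 0.17.

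**Figure D3:**
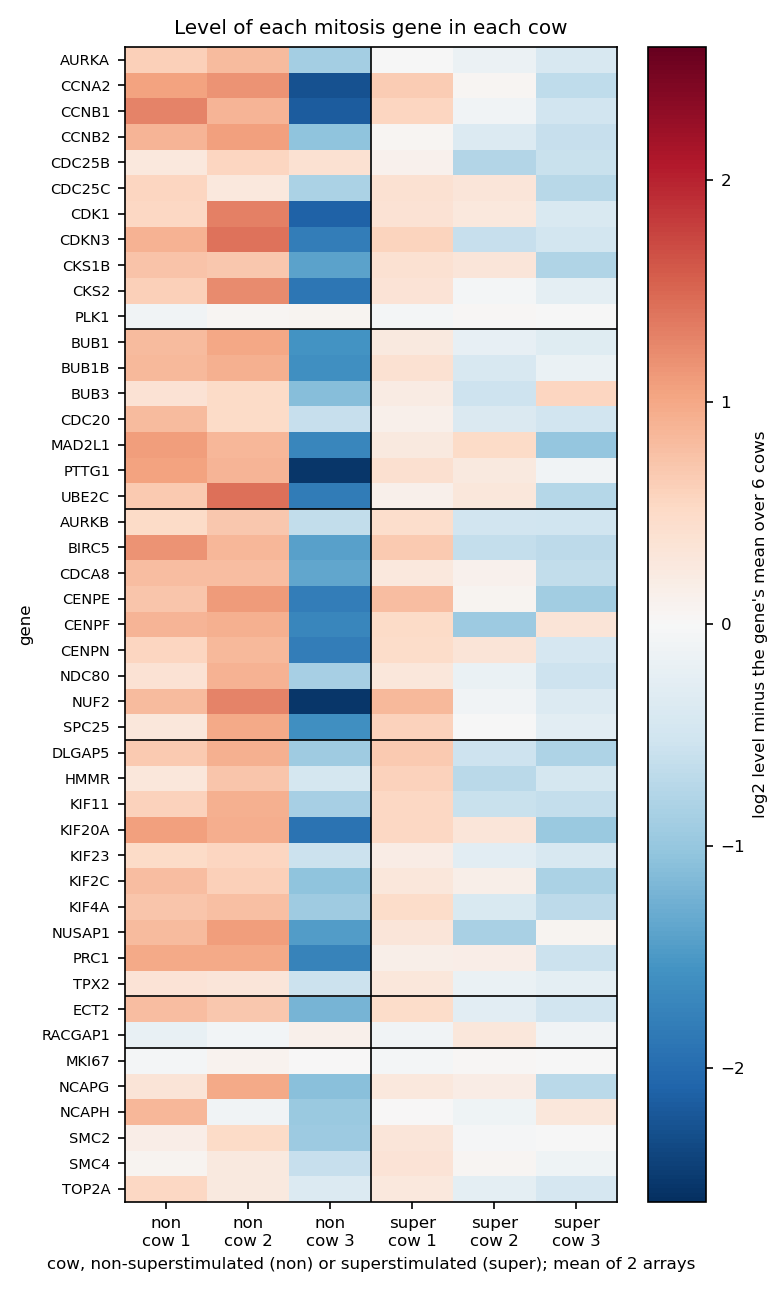
Log2 level of each mitosis gene (rows, grouped by role) in each of the 6 cows (columns), as the difference from the gene's own mean over the 6 cows, with blue for low and red for high. Non-superstimulated cow 3 is the lowest column for 39 of 45 genes, and non-superstimulated cow 2 the highest for 27.

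Among genes of mitotic entry, 9 of 11 measured were lower in pair 2 and 8 were higher in pair 3, with role medians of -0.31, -1.04 and 0.61 in pairs 1, 2 and 3. CDK1, the kinase that drives entry into mitosis, had levels of 10.05, 9.93 and 9.28 in superstimulated cows 1, 2 and 3, and of 10.19, 10.96 and 7.57 in the non-superstimulated cows. The last of these cows lay below all others, and the groups overlapped. Its log2 ratios were -0.15, -1.04 and 1.71, with an adjusted p of 1.21e-05 for the difference between pairs. CKS2, a small subunit that binds CDK1, had levels of 10.63, 10.24 and 10.03 against 10.89, 11.50 and 8.39, with ratios of -0.26, -1.26 and 1.63 (adjusted p = 7.3e-06). CDKN3, a phosphatase that acts on cyclin-dependent kinases, had levels of 10.15, 8.96 and 9.09 against 10.47, 10.98 and 7.77, with ratios of -0.31, -2.02 and 1.32 (adjusted p = 4.86e-06). In each of these genes the low cow was again non-superstimulated cow 3.

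The cyclins followed the same order. CCNB1, cyclin B1, had ratios of -0.72, -0.99 and 1.66, and its level fell from 13.70 and 13.31 in non-superstimulated cows 1 and 2 to 10.26 in cow 3. CCNA2, cyclin A2, had -0.39, -1.10 and 1.61, and CCNB2, cyclin B2, had -0.83, -1.42 and 0.43. AURKA, the kinase of the spindle poles, had -0.63, -0.99 and 0.48. CDC25B, a phosphatase that activates CDK1, differed from the rest: it was lower in pairs 2 and 3, with -1.33 and -0.99, and its level of 9.85 in non-superstimulated cow 3 was close to the 9.72 and 10.02 of the other cows of that group. CDC25C, of the same family, had -0.15, 0.043 and 0.10, with levels of 7.50 and 7.40 in both cows of pair 3 and of 8.48 to 8.76 in the other 4 cows. PLK1, a kinase of many mitotic steps, was above the negative controls on 3 of 6 arrays in each group and had 0.049, -0.025 and -0.093.

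In the spindle checkpoint and anaphase group, 6 of 7 genes were lower in pair 2, 6 were higher in pair 3 and 5 were lower in pair 1, with medians of -0.55, -1.03 and 1.25. PTTG1, the securin that holds back chromatid separation, had levels of 12.79, 12.63 and 12.28 in superstimulated cows 1, 2 and 3, and of 13.42, 13.24 and 9.85 in the non-superstimulated cows. Its ratio of 2.44 in pair 3 was the largest of any mitosis gene, and both of its probes gave it, with 2.41 and 2.44. In pairs 1 and 2 it had -0.63 and -0.62. BUB1B, a checkpoint protein that restrains the anaphase-promoting complex, had levels of 10.82, 10.02 and 10.25 against 11.27, 11.35 and 8.83, with ratios of -0.45, -1.34 and 1.41. BUB3, its binding partner, had levels of 14.54, 13.80 and 14.89 against 14.70, 14.83 and 13.23, with ratios of -0.16, -1.03 and 1.65. For BUB3 it was superstimulated cow 3 that held the highest level.

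CDC20, the activator of the anaphase-promoting complex, had the smallest range between pairs in this group, with ratios of -0.69, -0.87 and 0.089. Its levels were 9.44, 8.94 and 8.80 against 10.13, 9.81 and 8.71, so both cows of pair 3 were low. UBE2C, the conjugating enzyme that works with that complex, had -0.54, -1.14 and 1.07. BUB1, a checkpoint kinase, had -0.55, -1.20 and 1.25, and MAD2L1, the checkpoint protein that binds CDC20, had -0.82, -0.36 and 0.70.

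All 9 measured genes of the kinetochore and the chromosomal passenger complex were lower in pair 2, and 8 were higher in pair 3, while 0 were called in pair 1. NUF2, a rod protein of the NDC80 complex that grips microtubules, had levels of 11.39, 10.45 and 10.18 in superstimulated cows 1, 2 and 3, and of 11.37, 11.83 and 8.02 in the non-superstimulated cows. Its ratios were 0.014, -1.38 and 2.16, with the lowest adjusted p of any mitosis gene for the difference between pairs, 3.15e-06. CENPF, a large protein of the outer kinetochore, had levels of 12.99, 11.55 and 12.82 against 13.37, 13.42 and 10.79, with ratios of -0.38, -1.87 and 2.03, the widest range of all 45 genes. SPC25, another NDC80 complex subunit, had levels of 9.39, 8.78 and 8.50 against 9.08, 9.77 and 7.19, with ratios of 0.31, -0.998 and 1.31.

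AURKB, the kinase of the passenger complex, had the smallest range of this group. Its levels were 12.75, 11.80 and 11.77 against 12.78, 12.99 and 11.66, and its ratios -0.035, -1.19 and 0.11. The passenger subunits BIRC5 and CDCA8 had -1.48 and -0.70 in pair 2 and 0.73 and 0.71 in pair 3. NDC80 itself had -1.07 and 0.32 in those pairs, the kinesin CENPE -1.03 and 0.90, and CENPN, which reads the centromeric nucleosome, -0.51 and 1.35.

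Spindle motors and microtubule proteins were all called lower in pair 2, 10 of 10 with HMMR, which was not above background in the superstimulated cow, but only 4 of 10 were higher in pair 3, where their median was 0.24. NUSAP1, which bundles spindle microtubules, had levels of 12.51, 11.34 and 12.26 in superstimulated cows 1, 2 and 3, and of 13.01, 13.27 and 10.73 in the non-superstimulated cows, with ratios of -0.50, -1.93 and 1.53. PRC1, which cross-links the central spindle, had levels of 13.56, 13.60 and 12.86 against 14.41, 14.39 and 11.69, with ratios of -0.84, -0.80 and 1.18. KIF11, the kinesin that pushes spindle poles apart, had levels of 11.29, 10.18 and 10.13 against 11.36, 11.69 and 9.90, with ratios of -0.063, -1.51 and 0.23. KIF2C, a kinesin that takes microtubules apart, had the smallest range, with levels of 12.21, 12.06 and 11.08 against 12.72, 12.54 and 10.86 and ratios of -0.51, -0.48 and 0.22. For KIF2C both cows of pair 3 lay below the other 4. For KIF11 both were low as well, but superstimulated cow 2, at 10.18, was close to superstimulated cow 3, at 10.13.

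DLGAP5, which stabilises the spindle, had -1.45 in pair 2 and 0.12 in pair 3. HMMR, another spindle protein, was above the negative controls on 0 of 2 arrays in superstimulated cows 2 and 3 and in non-superstimulated cow 3. Its call as lower in pair 2 is thus against a level not above background and has no exact size, and in pair 3 neither cow was above background. KIF20A, a kinesin of cytokinesis, had -0.63 and 0.94, KIF23 of the central spindle -0.84 and 0.14, the chromokinesin KIF4A -1.19 and 0.24, and the spindle assembly factor TPX2 -0.49 and 0.30.

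Of the cytokinesis genes, ECT2, which activates the GTPase of the contractile ring, had levels of 8.84, 8.10 and 7.88 in superstimulated cows 1, 2 and 3, and of 9.16, 9.06 and 7.16 in the non-superstimulated cows, with ratios of -0.32, -0.96 and 0.72. RACGAP1, its partner at the central spindle, had mean ratios of the other sign in each pair, but the 2 arrays of each swap disagreed in sign. In pair 2 RACGAP1 had -0.031 with the superstimulated cow in Cy5 and 0.76 on the swap. Its dye effect of -0.43 passed the threshold (adjusted p = 0.0021 by limma). Its levels were 8.53, 8.91 and 8.52 against 8.42, 8.54 and 8.75, and its ratios 0.10, 0.37 and -0.23, with the value in pair 2 called as higher (adjusted p = 0.0129) by limma.

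The 6 genes of chromosome structure had smaller medians, of -0.35 in pair 2 and 0.44 in pair 3, with 3 lower in the first and 4 higher in the second. NCAPH, a condensin subunit, had levels of 9.93, 9.80 and 10.22 in superstimulated cows 1, 2 and 3, and of 10.78, 9.84 and 8.95 in the non-superstimulated cows, with ratios of -0.84, -0.032 and 1.27. NCAPG, of the same complex, had levels of 11.02, 10.93 and 10.03 against 11.07, 11.73 and 9.64, with ratios of -0.048, -0.80 and 0.39. SMC2, a condensin core subunit, had levels of 8.31, 7.95 and 7.99 against 8.15, 8.49 and 7.04, with ratios of 0.16, -0.53 and 0.94. SMC4, the other core subunit, had 0.28, -0.21 and 0.48.

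The 2 best-known proliferation genes of this group, TOP2A and MKI67, did not differ between pairs at the threshold. Of these 2, only TOP2A was called lower in pair 2 (adjusted p = 0.0111 by limma). TOP2A, the topoisomerase that untangles chromosomes, had ratios of -0.27, -0.50 and -0.063, the last with superstimulated cow 3 not above the negative controls on either array, and exceeded the negative controls on 4 arrays in the superstimulated and 5 in the non-superstimulated group. MKI67, which codes for the Ki-67 antigen, had levels between 7.17 and 7.31 in all 6 cows and ratios of 0.0022, -0.057 and -0.021, and it exceeded the controls on 4 and 5 arrays. Across the 45 genes, which are not independent, the range between pairs correlated with mean intensity at r = 0.598 (Spearman 0.606), where r was 0.438 across all genes. The offset used in background correction pulls ratios of dim probes toward 0.

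Over the 3 pairs no mitosis gene passed the test between the groups, and neither did any other gene. With n = 3 pairs, this does not show that the groups were alike. By limma, 0 of 45 genes passed an adjusted p of 0.05, where 0% of all genes did, and 0 of 45 had an unadjusted p under 0.05, where 3.6% of all genes did. A fit with a random block per pair, a fit of 6 independent arrays and a fit of 3 cows against 3 were also run. They gave 1, 3 and 1 mitosis genes at that unadjusted p, and 0 after adjustment. The share of all genes at that p is not given for these fits, so these counts cannot be compared with it. The fit of 6 arrays took the arrays of a dye swap, which share their extracts, as independent, so its count can be too high. The median of the 45 mean ratios was -0.15, and they ran from -0.82 for CDC25B to 0.40 for PTTG1. The SD between the 3 pairs had a median of 0.88 among the mitosis genes and of 0.274 among all genes. Only TOP2A and CDC25B had the same sign in all 3 pairs, where 23% of all genes did.

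Further cell cycle genes were taken from lists that hold none of the 50. Of 46 other measured genes with peak expression around mitosis, 32 were lower in pair 2 and 25 higher in pair 3. In the opposite directions were 1 and 5, and the medians were -0.091, -0.63 and 0.30 in pairs 1, 2 and 3. Of all genes, 21.8% were lower and 13.8% higher in pair 2, and 27.3% were higher and 19.6% lower in pair 3. FAM83D, a spindle protein, had ratios of -0.45, -1.17 and 1.31, CENPK of the inner kinetochore 0.21, -1.43 and 1.11, and ASPM of the spindle pole -0.40, -1.85 and 0.60. The next list held 30 genes of machinery that is less tied to the cycle, such as the core of the anaphase-promoting complex and cohesin. Of these, 14 were lower and 1 higher in pair 2, and 11 were higher and 6 lower in pair 3. Their medians were -0.016, -0.24 and 0.10. CKAP5, a microtubule polymerase, had -0.54, -1.25 and 0.95, while ANAPC1 and ANAPC4, both of that complex, had 2.11 and -1.04 in pair 2.

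Genes of DNA replication had medians of 0.093, -0.47 and 0.26. In pair 2, 19 of 32 were lower and 3 higher, against 21.8% and 13.8% of all genes. In pair 3, 15 were higher and 2 lower, against 27.3% and 19.6%. GMNN, which limits replication to once per cycle, had -0.0024, -1.10 and 2.15, RFC3, of the clamp loader, 0.38, -1.60 and 1.15, and PCNA, the sliding clamp, 0.18, -0.90 and 1.47. These lists were compared with the mitosis genes by their values only.

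**Figure D4:**
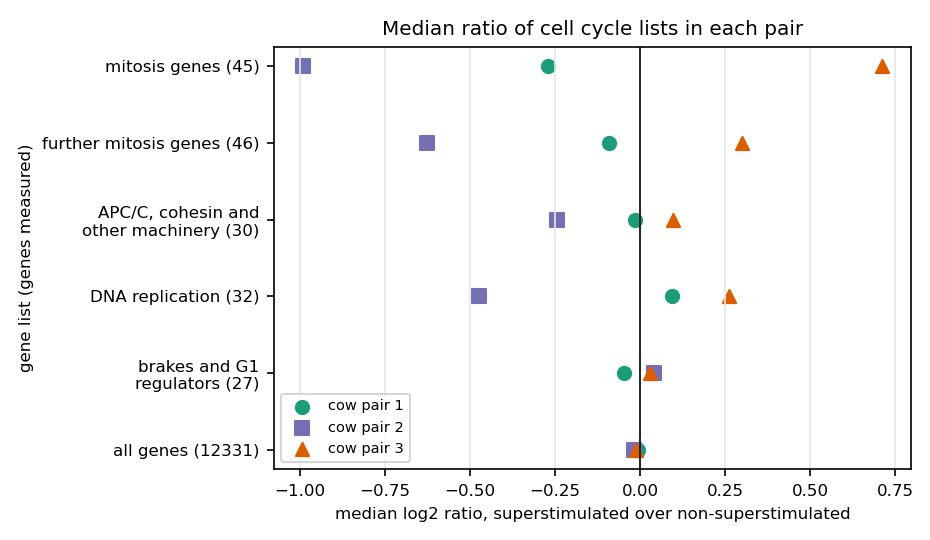
Median log2 ratio of superstimulated over non-superstimulated (x axis) of each gene list (y axis, genes measured in brackets) in each cow pair. For the mitosis genes it is -0.27, -0.99 and 0.71, for the further mitosis genes -0.091, -0.63 and 0.30, and for all genes -0.0066, -0.017 and -0.012.

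Markers of cell types moved between cows as well. The summed intensity of the 45 mitosis genes was 133518, 94898 and 95025 in superstimulated cows 1, 2 and 3, and 180142, 190985 and 40982 in the non-superstimulated cows. That of 9 granulosa markers was 115053, 87202 and 80994 against 95400, 108586 and 56165, so non-superstimulated cow 3 had the lowest sum in both lists. Bright genes weigh most in such a sum. In pair 3, 5 of the 9 granulosa markers had a ratio below 0 and 4 above, with a median of -0.046. Of these 9, 3 were called higher and 2 lower, where 27.3% and 19.6% of all genes were. The summed intensity of 10 markers of LH-responsive follicle cells was 5857, 115242 and 70006 against 32651, 6393 and 45292. Superstimulated cow 2, the low cow of pair 2 in mitosis genes, thus had the highest sum of the 6 cows for LH-responsive markers. Superstimulated cow 1, the lower cow of pair 1 in most mitosis genes, had the lowest. In pair 3 both cows had sums above all but that of superstimulated cow 2. The low cow of pair 3 in mitosis genes had the lower sum of that pair. Single markers did not all follow. In pair 1, 5 of the 10 were called lower and 1 higher, where 6.91% and 3.83% of all genes were. In pair 2, 7 of the 10 were called higher and 2 lower, where 13.8% and 21.8% of all genes were. In pair 3, 8 were higher and 1 lower, where 27.3% and 19.6% were, and the lowest ratio was -7.94. Only 5 of the 10 exceeded the negative controls on every array in both groups. CYP19A1 had levels of 12.37, 10.54 and 8.38 against 12.40, 11.90 and 7.87, FSHR 9.58, 8.79 and 8.30 against 9.77, 9.52 and 8.97, PGR, the progesterone receptor, 11.29, 15.12 and 10.21 against 11.18, 10.63 and 9.43, and NTS, neurotensin, 9.25, 10.61 and 12.17 against 7.03, 6.88 and 7.42, the last of which was not above the negative controls on either array.

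PTPRC, the common antigen of leukocytes, had its highest level in non-superstimulated cow 3, at 12.53 against 11.10 to 11.51 in the other 5 cows. It was the only 1 of 6 measured leukocyte markers called in pair 3, where 3 had a ratio below 0 and 3 above, with a median of 0.0040. PTPRC was the brightest of the 6 and weighs most in their sum. The summed intensity of 6 leukocyte markers ranged from 3192 to 3581 in the superstimulated group and from 2825 to 6567 in the other. Markers of smooth muscle and fibroblasts summed to 14802, 31012 and 28758 against 12303, 7258 and 11279, epithelial markers to 687, 7658 and 3485 against 719, 648 and 3517, and theca markers to 4391, 1580 and 13238 against 6932, 3973 and 3226. Endothelial markers summed to at most 899, oocyte markers to at most 679 and red cell markers to at most 389. PECAM1, of endothelium, was not above the filter. The part of these shifts in the levels of the mitosis genes was not tested.

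**Figure D5:**
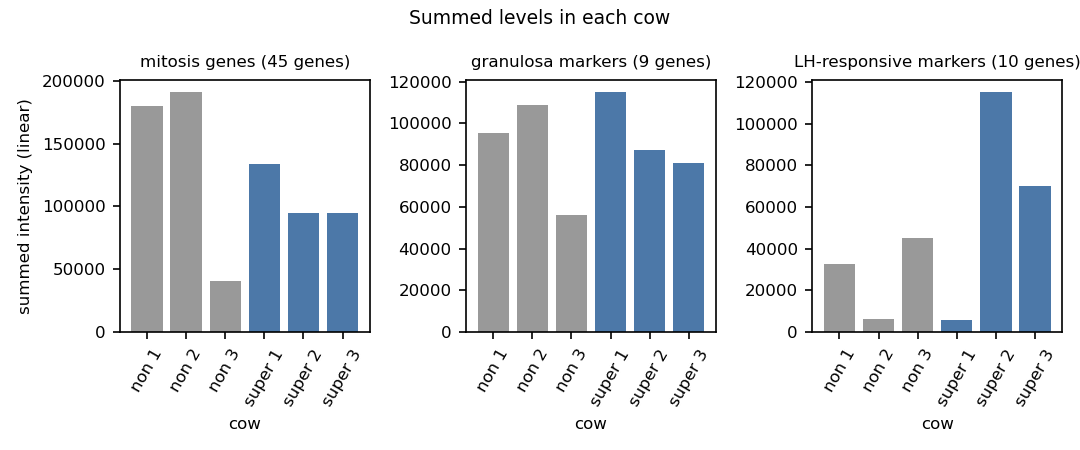
Summed intensity (y axis, linear scale) of the mitosis genes, of granulosa markers and of markers of LH-responsive follicle cells in each of the 6 cows (x axis; non, non-superstimulated, super, superstimulated), as bars from 0 with no error. Non-superstimulated cow 3 has the lowest bar for the mitosis genes, 40982, and for granulosa markers, 56165, and superstimulated cow 2 the highest for LH-responsive markers, 115242.

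Different probes of 1 gene did not always agree. Of 11 mitosis genes with several probes past the filter, 6 had probes of opposite sign in at least 1 pair. The values above are those of the brightest probe. In pair 3 the other probe gave -0.057 for BUB3, -0.049 for CCNA2, -0.11 for NCAPH and 0.0028 for NUSAP1, and in pair 2 it gave -0.051, 0.098, -0.00085 and 0.041. The mean log2 intensity of these other probes was 7.49, 7.06, 7.24 and 6.99, where the brightest probes had 14.32, 10.52, 9.92 and 12.18. CDC25B, lower in pairs 2 and 3 on its brightest probe, had 0.16 and -0.031 in pair 2 on 2 dimmer probes. For CENPN, BIRC5, ECT2, CDKN3, AURKB and PTTG1 every probe past the filter had the same sign in pair 2, and likewise in pair 3, but sizes could differ. The 3 probes of AURKB, brightest first, gave -1.19, -0.030 and -0.32 in pair 2, and 0.11, 0.69 and 0.0052 in pair 3. The 3 probes of CDKN3 gave -2.02, -1.15 and -0.71 in pair 2, and 1.32, 0.66 and 0.038 in pair 3.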

How the data were processed

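The members and gene lists were chosen with earlier results of these data known. Per the labels' protocols, Trizol-extracted RNA went through 2 rounds of T7 amplification, which can distort levels of small inputs, before it was labelled with Cy3 and Cy5. The deposited scanner tables hold foreground and background intensity per spot in green (Cy3) and red (Cy5), not background-subtracted, per the file headers. A deposited table of log2 values, with unstated normalization, was an alternative; its correlation with the scanner ratios of that array, 0.695 to 0.834 against at most 0.335 with another array, gives log2 of red over green. Its columns have medians of -0.00433, -0.0115, -0.0348, -0.011, -0.00625 and -0.00797 for arrays 1 to 6.

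Of 45220 spots, 43753 probes and 1417 controls entered, after removal of 8 nameless spots and of 42 marked as ignored on some array. Foreground means were corrected for background medians by normexp with an offset of 50, and ratios normalized within arrays by loess with controls at weight 0. A probe was kept if its foreground exceeded the 95th percentile of 756 negative controls in either channel on 3 or more of the 6 arrays, giving 31957. Platform symbols were updated through a RefSeq table of the ARS-UCD2.0 assembly: 20068 probes matched a symbol, 1644 a synonym and 78 neither; 22004 were unnamed here. The brightest probe stood for a gene.

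The 2 arrays of a swap share their extracts and were averaged; the mean of 3 pairs was tested against 0 by limma's lmFit and eBayes. Single pairs and their differences were tested with limma over the 6 arrays, with pair and dye as terms. P-values were adjusted by Benjamini-Hochberg over all 12331 genes at a threshold of 0.05. Levels per cow are those of single channels, after Aquantile normalization of the loess ratios. Precision is limited by there being 6 arrays. Within each role, the 3 genes with the largest range between pairs and the 1 with the smallest were given with levels in every cow, and of other lists the 3 with the smallest p for the difference between pairs. CCNB1, CDC25C and other genes whose levels are printed beyond these were chosen after their values were seen. Steps were tested on simulated data. R 4.3.3, limma 3.58.1, Python 3.11.15 and matplotlib 3.10.9 were used.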

Additional observations from a re-analysis of the deposited data

How the results depend on the processing

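Counts of mitosis genes called in a pair, the direction of each pair's median and the absence of a called mitosis gene over the 3 pairs held under most settings, and the median in a pair kept its sign under all that were run. The pattern of pairs 2 and 3, the cow with the lowest level, and their alternatives were chosen after seeing the data. Median centring in place of loess gave 24 called genes in pair 1, and medians of -0.39, -1.19 and 0.97 in pairs 1, 2 and 3. The deposited log2 values gave 26 genes that differed between pairs, 0, 25 and 21 called in pairs 1, 2 and 3, 14 lower in pair 2 and higher in pair 3, and a median of -0.36 in pair 1. The cause was not tested. A normexp offset of 16 gave -0.31 in pair 1 and the mean over probes of a gene -0.84 in pair 2. The arrays with the superstimulated cow in Cy3 alone gave -0.83 and 0.50 in pairs 2 and 3. Without a pair, pair 1 had 19 to 28 called genes, pair 2 37 to 41 and pair 3 29 to 32, the difference between pairs 34 to 40, and the median over the pairs ran from -0.61 to 0.17. The share of all genes called in a pair is not given for these settings, so these counts cannot be compared with it.

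With the pair as a random replicate block over 6 arrays, 1 gene of all passed for the group ratio, and without the replicate block, with 6 arrays as independent, also 1, RAB15, which is no mitosis gene; 3 cows against 3 gave 0. Across genes, the deviations of same-numbered cows from the means of their groups correlated at 0.177, 0.0398 and 0.272, and those of cows of different numbers at -0.259 to 0.23, the highest for superstimulated cow 1 with non-superstimulated cow 2. Same-numbered cows shared arrays, and this does not show that the animals were matched.

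Of 286 mean ratios of the 22 mitosis genes chosen by the rule under other settings, 256 had the same sign and call. None of the 22 passed the threshold in any. Without the filter on dim probes, and in the fits that handled the pairs otherwise, the mean ratios equal those of the main fit. Their signs could not change, and they are among the 256, which thus says less about how far the signs held. BUB3 had -0.0027 in the deposited values. On the arrays with the superstimulated cow in Cy5 alone ECT2 had 0.10 and RACGAP1 -0.35. On those with it in Cy3 MKI67 had 0.17, CKS2 -0.074, PLK1 0.42, BUB3 -0.095 and PRC1 0.063. Without a pair, the mean ratio ran from -0.44 to 0.62 for NCAPH, -0.19 to 0.55 for SMC2, -0.42 to 0.17 for NCAPG, -0.64 to 0.20 for ECT2, -0.064 to 0.24 for RACGAP1, -1.13 to 0.82 for CENPF, -0.68 to 1.09 for NUF2, -0.34 to 0.81 for SPC25, -0.61 to 0.038 for AURKB, -1.17 to 0.50 for CDKN3, -0.76 to 0.69 for CKS2, -0.59 to 0.78 for CDK1, -0.059 to 0.012 for PLK1, -0.62 to 0.91 for PTTG1, -0.89 to 0.48 for BUB1B, -0.60 to 0.75 for BUB3, -1.22 to 0.52 for NUSAP1, -0.82 to 0.19 for PRC1 and -0.78 to 0.085 for KIF11. The cause was not tested. Signal over background limits PLK1, MKI67, TOP2A and HMMR.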

Other observations

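Genes that hold back or steer the cell cycle before mitosis were called in both directions. Of 27 measured, 7 were higher and 7 lower in the superstimulated cow of pair 2, where 13.8% and 21.8% of all genes were. In pair 3, 10 were higher and 7 lower, where 27.3% and 19.6% of all genes were. Lower in pair 2 and higher in pair 3 were 4 of the 27, against 9.67% of all genes, and the difference from the mitosis genes was not tested. The list had medians of -0.047, 0.041 and 0.031 in pairs 1, 2 and 3. The 3 with the smallest p for the difference between pairs, all with an adjusted p under the threshold by limma, differed widely between cows. GADD45A, a stress-induced gene that slows entry into mitosis, had log2 levels of 6.98, 10.06 and 7.22 in superstimulated cows 1, 2 and 3, and of 7.21, 6.92 and 10.47 in the non-superstimulated cows. It was thus high in superstimulated cow 2 and non-superstimulated cow 3, the lower cows of pairs 2 and 3 in the mitosis genes, with ratios of -0.23, 3.14 and -3.25. GADD45B, of the same family, was low in those cows, with levels of 14.05, 12.01 and 12.92 against 13.92, 14.22 and 10.46. Its ratios of 0.12, -2.22 and 2.46 had the signs of most mitosis genes in pairs 2 and 3. CDKN2B, an inhibitor of the kinases of early cell cycle entry, had 6.80, 10.65 and 8.56 against 6.84, 6.65 and 6.94, and was above the negative controls on only 1 array in the non-superstimulated group.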
